A study of Macaca fascicularis with 2 samples.

Results

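The notochordal cells (NCs) described here were chosen by 2 genes. They are the cells with at least 5 reads of *KRT19*, an intermediate filament keratin, and at least 5 reads of *TBXT*, the T-box transcription factor brachyury. In a single-cell library of 5674 tagged cells, 310 cells (5.46%, exact 95% binomial interval 4.89% to 6.09%) met both conditions. They were compared with the 5279 tagged cells that had under 5 reads of each gene, here called comparison cells, and another 85 cells passed the limit for 1 gene only.

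The library was made by TAS-seq, a method that amplifies the cDNA each cell leaves on its own barcoded bead. It pooled articular cartilage (AC) and nucleus pulposus (NP) cells of 2 wild-type male cynomolgus monkeys (*Macaca fascicularis*), both 3 years old and untreated as far as the labels say. The labels list 3 tissue samples, which are AC from each of the monkeys and NP from only 1 of them, but the cells carry 4 tags (A951 to A954). A tag is an oligo bound to the biotinylated cell surface that marks the sample of origin, but no source used here pairs a tag with a tissue, so the tags are given side by side and no tissue is assigned to any cell. Live, labelled cells were sorted after enzymatic digestion, which may leave out cell types that do not survive it.

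The NP is the gelatinous core of the intervertebral disc and arises from the embryonic notochord, a midline rod that secretes sonic hedgehog to the neighbouring tissues. In young discs it still holds large NCs with vacuoles, joined to each other by cadherins and desmosomes and rich in keratins, and brachyury is the transcription factor by which the lineage is best known. With age, chondrocyte-like cells (CLCs), which make type II collagen and aggrecan as articular chondrocytes do, take their place.

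All values are reads per 1000000 reads on genes (rpm), pooled over the cells of a group unless a value is said to be that of a cell. The 310 NCs held 66069761 reads, and the median NC had 186370 reads and 4061 genes. The comparison cells had medians of 199109 reads and 3819 genes, so depth was similar, and the share of mitochondrial reads was also close (medians of 1.35% and 1.46%). Because all cells come from 1 library, there are no replicates and no test, and intervals cover counting error only. Within the library, tags A951 and A952, with 67 and 236 NCs, served as the check of each difference.

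The genes of the rule set the members apart by definition, and their values are given as a description. In NCs the median was 181 *KRT19* reads (range 5 to 1157) and 142.5 *TBXT* reads (range 5 to 863). Most NCs lay far from the limit, since 218 had at least 50 reads of both genes and 13 had 5 to 9 reads of either. Just outside, 4 cells had 3 to 4 reads of the scarcer gene, and 98 cells in all had a read of both genes without meeting the rule. In comparison cells a read of *KRT19* was found in 9.60% and of *TBXT* in 9.76%. From A951 to A954 these shares were 9.36%, 7.65%, 9.36% and 10.6% for *KRT19* and 6.96%, 10%, 9.06% and 11.3% for *TBXT*. Both shares were highest in A954, the tag with the fewest NCs. Its comparison cells were also the deepest, with a median of 220528 reads against 184826, 177056 and 195360 in A951 to A953. In pooled rpm the order differed, with *KRT19* highest in A951 and *TBXT* in A952. The levels in A951 to A954 were 0.572, 0.496, 0.484 and 0.540 rpm for *KRT19*. For *TBXT* they were 0.390, 0.640, 0.460 and 0.567 rpm. The source of these reads was not tested, and other genes of high level in NCs had a read in more comparison cells, as *C3orf49* in 32.5% and *SRGN* in 22.8%.

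**Figure D1:**
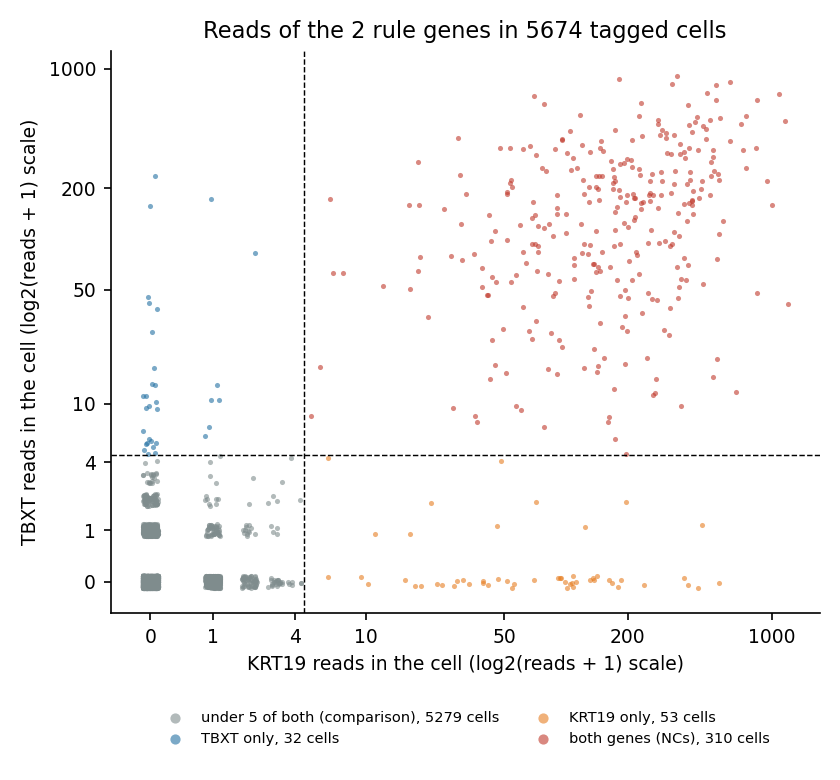
Reads of *KRT19* (x axis) and *TBXT* (y axis) in each of the 5674 tagged cells, both on a log2(reads + 1) scale with a small random offset, and dashed lines at the limit of 5 reads. The 310 NCs form a broad cloud at upper right, the 5279 comparison cells lie at 0 to 4 reads of both genes, and 53 cells passed for *KRT19* only and 32 for *TBXT* only.

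NCs were unevenly spread over the tags. They made up 20.8% of the 1132 cells of A952 (236 cells) and 6.72% of the 997 cells of A951 (67 cells). In A953 there were 5 NCs among 1383 cells (0.362%) and in A954 2 among 2162 (0.0925%). Thus 97.7% of all NCs carried A951 or A952. No cell called a doublet from its tags (42 cells) and none of the 7 cells without a tag met the rule. Doublets within a tag were not looked for.

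The label of these cells was looked at with genes that the rule did not use. This is not an independent check, because the lists were chosen with earlier results of these data known. The study also names *APOE*, *C3orf49*, *NRN1* and *SRGN* as markers of its cluster of NCs, from data that include this library. *APOE*, an apolipoprotein, *NCAM1* and *CDH2*, which are cell adhesion molecules, were all higher in NCs. *APOE* was at 10894 rpm against 85.5 rpm in comparison cells, *NCAM1* at 506 against 22.3 rpm, and *CDH2* at 119.6 against 0.886 rpm. *APOE* had at least 5 reads in all 310 NCs, whereas *NCAM1* did in 78.7% and *CDH2* in 43.5%. A list of notochordal marker genes, which includes *APOE*, had 12 genes that could be compared with the 2 rule genes left out. Of these, 11 were higher in NCs by the criterion given below. The exception was *FOXA2*, a forkhead factor of the embryonic notochord, which was lower at 0.908 against 5.54 rpm with 63.3% of its NC reads in a single cell, and its call was lost when comparison cells were matched on genes detected and when cells were thinned. The keratins *KRT8* and *KRT18* and the surface protein *CD24*, which also mark NCs, are not among the genes counted and were not analysed here.

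Across all genes, NCs differed widely from the other cells. A gene was counted as higher or lower when its log2 ratio of pooled rpm was at least 1 in size, that is 2-fold, over all cells and also within both A951 and A952, among 11526 genes with a read in at least 5% of the cells of either group. By this rule 1881 genes (16.3%) were higher and 1033 (8.96%) lower in NCs, and 261 of the former and 157 of the latter differed at least 16-fold. The median log2 ratio over all 11526 genes was 0.30, which is the level that list medians below are read against, as list counts are read against the 16.3% and 8.96%. Scaling by TMM moved every log2 ratio down by 0.34, and then 1324 genes were higher and 1425 lower, so that the share of calls that were higher went from 64.6% to 48.2%. The balance of higher to lower genes therefore rests on the scaling. Of 206 named genes with a call, leaving out A952, which holds 236 of the 310 NCs, moved 86 by over 1.5 times. These 206 include the 2 genes of the rule.

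The genes with the largest ratios were taken as the 20 highest among genes with at least 5 reads in at least 50% of NCs. In comparison cells all but *LYST* and *APOE* were under 6 rpm. *C3orf49*, an open reading frame of little known function, led with 2274 rpm against 2.54 rpm, a log2 ratio of 9.81. By tag its level in NCs was 1529, 2437, 2210.3 and 5499 rpm in A951 to A954, and in comparison cells it was between 2.09 and 4.19 rpm, so that in each tag the pooled level of NCs was above that of comparison cells, although single cells overlapped (in A952 from 0 rpm in NCs and up to 3200.3 rpm in comparison cells). After every cell was thinned to 50000 reads, which left out 11 NCs and 199 comparison cells, 96.3% of NCs and 9.13% of comparison cells had a *C3orf49* read (unthinned 97.4% and 32.5%).

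*LYPD1*, a GPI-anchored protein of the Ly6 family, was at 1541 against 2.08 rpm (log2 ratio 9.54). *NRN1*, neuritin, a GPI-anchored protein that promotes neurite growth, was at 522 against 1.54 rpm. *NTRK3*, the receptor of neurotrophin-3, was at 391 against 2.11 rpm, with 111 rpm in NCs of A951 and 470 rpm in those of A952. *TSPAN7*, a tetraspanin, also stood lower in A951 (68.4 rpm) than in A952 (259.9 rpm), and in both tags it was far above the comparison cells (0.937 and 0.968 rpm). *SLC15A5*, a member of the family of peptide transporters, had a log2 ratio of 7.47. *SRGN*, the proteoglycan core protein serglycin of secretory granules, was at 739 against 5.88 rpm and had at least 5 reads in 93.9% of NCs.

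*PKP2*, plakophilin 2, a desmosome plaque protein, was at 185 against 0.483 rpm (log2 ratio 8.58) and was near to equal between the tags, with 212, 178, 217 and 159.7 rpm in the NCs of A951 to A954. *TNNT2*, the troponin T of heart muscle, was at 1229 against 4.99 rpm and *PDLIM1*, which binds alpha-actinin, at 383 against 2.01 rpm. *LYST*, a regulator of lysosome traffic, was at 1894 against 13.5 rpm and *RAB3B*, a GTPase of vesicle release, at 252 against 2.24 rpm. *GALNT3*, which starts mucin-type glycosylation, had a log2 ratio of 8.20, the adaptor *SKAP2* 8.05, the kinase *HUNK* 6.95, the phosphodiesterase *PDE1A* 5.99, the glutathione transferase *MGST1* 5.87, *AFAP1L1*, related to an actin filament protein, 5.86 and *TLCD4* 5.77. All 20 genes were at least 16-fold higher in NCs within each of A951 and A952, where their selection had already asked for 2-fold. Without A954 the log2 ratio of *NRN1* was 7.79 in place of 8.40, and that of *RAB3B*, 6.81 over all tags, was 7.56 without A953 and 6.22 without A954. Without A952 those of *NTRK3*, *TSPAN7* and *HUNK* were 5.81, 6.34 and 6.30, in place of 7.54, 7.74 and 6.95.

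**Figure D2:**
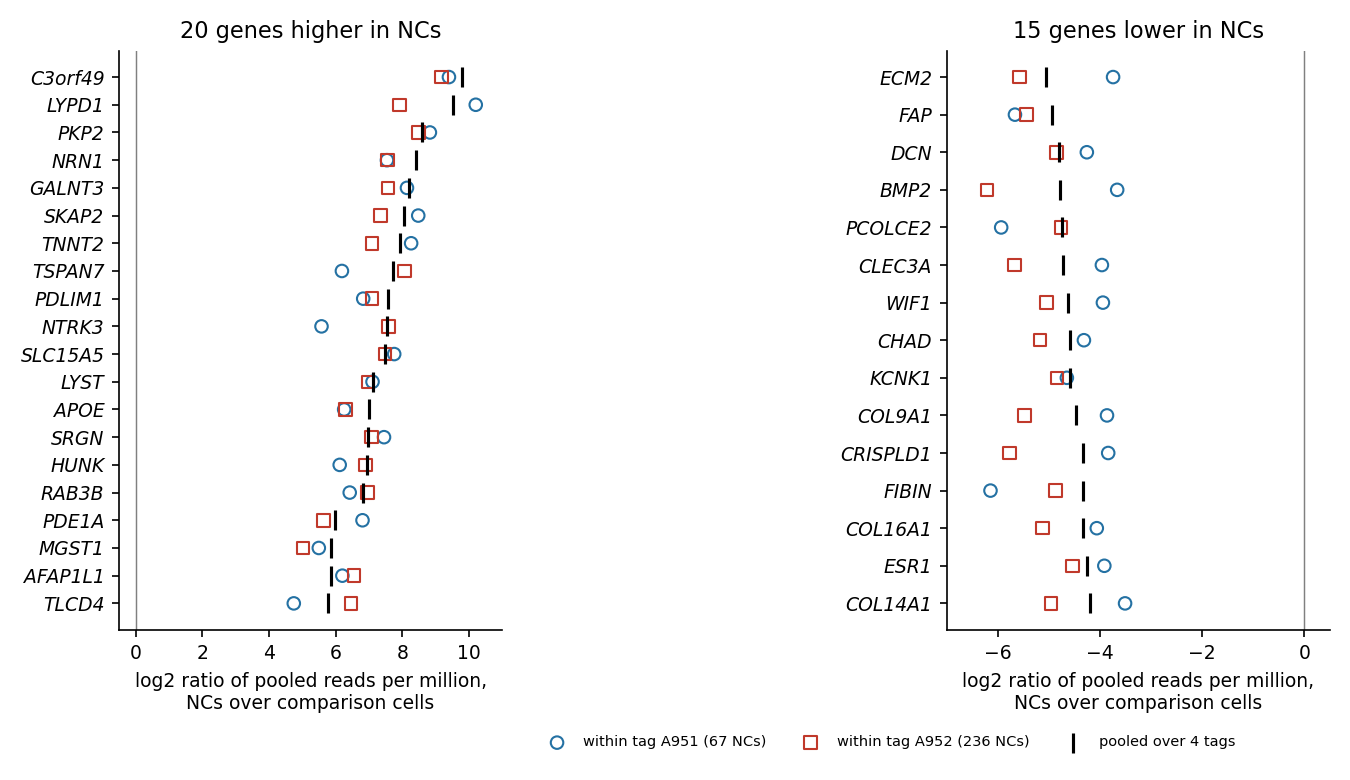
Log2 ratio of pooled rpm, NCs over comparison cells, for the 20 genes highest and the 15 genes lowest by the naming rule (x axes), pooled over the 4 tags (bars) and within A951 (circles, 67 NCs) and A952 (squares, 236 NCs). All genes lie on the same side of 0 in both tags because the criterion for a call asks for it. The values within tags run from 4.75 to 10.2 in the left panel, and the 2 tags differ most for *BMP2*, *LYPD1* and *NTRK3*.

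The 10 genes that took the most reads in NCs held 9.62% of their reads and 4.06% of those of the comparison cells. Reads are not corrected for gene length, so the levels of different genes are not ranked here as transcript numbers. *ACAN*, aggrecan, the large proteoglycan that gives cartilage and the NP their swelling pressure, was at 14439.7 rpm in NCs against 3913 rpm. *APOE* and *LGALS3*, galectin-3, a galactose-binding lectin known in NP cells, were the most different of the 10, with *LGALS3* at 7217 against 914 rpm. *SDC2*, the cell surface proteoglycan syndecan-2, was at 4692 against 1152 rpm. The cytoplasmic actins *ACTB* and *ACTG1* were at 7213 and 7735 rpm against 2996 and 3733 rpm, but in A951 each was under 2-fold (log2 ratios 0.76 and 0.49). The metallothioneins *MT2* (13781 against 9549 rpm) and *MT1E* (12639 against 2992 rpm) are copies of a gene family whose reads may be shared, and they varied greatly among NCs, the middle 50% of cells spanning 450 to 15992 rpm for *MT2*. *FMOD*, fibromodulin, a small proteoglycan that binds collagen, and *RPLP1*, of the ribosome, were nearly level between the groups (9513 against 7295 and 8046 against 7981 rpm).

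Cartilage matrix genes were the main group that was lower in NCs. Of 38 that could be compared, 31 were lower, 1 (*ACAN*) was higher and 6 were neither, with a median log2 ratio of -3.35 against 0.30 over all genes. *COL2A1*, the type II collagen chain, was at 1269 against 20187 rpm. By tag it was at 1970, 962, 4563 and 319 rpm in NCs, and at 24618, 24560.4, 18081 and 18509.9 rpm in comparison cells, so that all 4 tags of NCs were below all 4 of the comparison cells. Without A952 its log2 ratio was -3.06 in place of -3.99. *COL9A1* and *COL9A2*, chains of the type IX collagen on the surface of type II fibrils, were at 236 and 447 rpm against 5238 and 4294 rpm. *COL11A1* and *COL11A2*, of the type XI collagen in their core, were less far apart, with log2 ratios of -2.05 and -1.31.

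The small leucine-rich proteoglycans did not all move the same way. *DCN*, decorin, was at 169 against 4726 rpm, *BGN*, biglycan, at 1127 against 11813 rpm, *CHAD*, chondroadherin, at 337 against 8059 rpm, and *LUM*, lumican, *OGN* and *ASPN* had log2 ratios of -5.49, -4.10 and -6.28. *FMOD* (0.38) and *PRELP* (0.09), from the same family, were neither higher nor lower. *PRG4*, lubricin, the lubricant of the joint surface, was at 1138 against 12665 rpm and *MGP*, an inhibitor of mineral deposition, at 438 against 7043 rpm. The NC levels of both rested partly on the 5 NCs of A953, and without this tag their log2 ratios were -4.25 in place of -3.48 and -4.86 in place of -4.01. Without A952 they were -1.84 and -2.41. Those of *DCN*, *BGN*, *CHAD*, *OGN* and *ASPN* were then -4.05, -2.28, -3.63, -2.81 and -5.52, in place of -4.80, -3.39, -4.58, -4.10 and -6.28. *FN1*, fibronectin, was nearly level (4500.3 against 5498 rpm).

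Several abundant matrix genes were at a low level in nearly all NCs. The median NC had 2.05% of the pooled *COL2A1* level of the comparison cells, 2.11% of that of *DCN*, 1.62% of *CHAD*, 1.35% of *PRG4*, 1.24% of *COL9A1* and 0.741% of *MGP*. A median is set here against a pooled level, which few high cells can raise. The median comparison cell had 5455 rpm of *PRG4* (pooled 12665), 4448 of *MGP* (pooled 7043) and 18038 of *COL2A1* (pooled 20187). The middle 50% of NCs spanned 1.55-fold for *CHAD* and 1.48-fold for *PRG4*, whereas the middle 50% of comparison cells spanned 3.42-fold and 16.3-fold. The spans in NCs were 1.75-fold for *DCN*, 1.91-fold for *COL9A1*, 2.31-fold for *MGP* and 2.85-fold for *COL2A1*, each narrower than in comparison cells. *BGN* went the other way, with a median NC at 2.40% of the comparison level and a span of 3.86-fold in NCs against 1.69-fold. Only 6 or 7 of 310 NCs reached 25% of the comparison level of *CHAD*, *DCN*, *COL9A1*, *COL2A1* or *MGP*, and 10 did for *PRG4*. Reads of these genes were thus found in nearly every NC (for *COL2A1* at least 5 in all 310), and the part of free RNA in them was not tested. Other lower matrix genes varied more, as *COL11A2*, of which 155 NCs had at least 25% of the comparison level, and *CLU* (clusterin, a secreted chaperone), of which 174 had. The pooled levels of NCs are also raised by few cells, and 1 cell held 24.1% of the *MGP* reads of all NCs and 11.9% of those of *COL2A1*.

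The 15 genes with the lowest ratios, among genes with at least 5 reads in at least 50% of comparison cells, included *DCN*, *CHAD*, *COL9A1*, *COL16A1* and *COL14A1* of the matrix. *ECM2*, a matrix protein, was at 7.27 against 241 rpm (log2 ratio -5.05) and *FAP*, fibroblast activation protein, a surface protease of stromal cells, at 9.55 against 291 rpm. *BMP2*, a bone morphogenetic protein, was at 26.2 against 722 rpm, with 74.8 rpm in NCs of A951 and 12.7 rpm in those of A952. *PCOLCE2*, which aids procollagen processing, was at 21.5 against 575 rpm, the cartilage lectin *CLEC3A* at 43.4 against 1151 rpm and *WIF1*, a secreted inhibitor of WNT, at 13.8 against 341 rpm. The potassium channel *KCNK1*, *CRISPLD1*, *FIBIN* and the estrogen receptor *ESR1* had log2 ratios between -4.57 and -4.24. Single cells also raised these pooled levels, as 1 NC had between 7.49% (*DCN*) and 28.8% (*FAP*) of the reads of all NCs for each of the 15 genes. Without A953 the log2 ratios of *FAP*, *CLEC3A* and *FIBIN* were -5.60, -5.37 and -5.15, in place of -4.93, -4.73 and -4.34. That of *BMP2* was -5.48 without A951, in place of -4.78. Leaving out A952 moved these genes the other way, to -3.85 (*FAP*), -3.18 (*CLEC3A*), -3.08 (*FIBIN*) and -3.23 (*BMP2*). The ratios of *COL9A1*, *COL16A1* and *CRISPLD1* were then -3.19, -3.16 and -2.77, in place of -4.48, -4.33 and -4.34. In contrast, that of *PCOLCE2* was -5.63 without A952, in place of -4.74.

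Hedgehog genes were divided by role. In this pathway a lipid-modified ligand is released by DISP and SCUBE proteins and binds PTCH receptors, which frees SMO to act on the GLI factors. Of 6 genes for ligands and their release, 4 were higher in NCs, none was lower, and the median log2 ratio was 2.94. *SHH* was at 98.7 rpm (exact 95% interval of the count 96.3 to 101 rpm) against 0.372 rpm. In NCs it was at 35.6 rpm in A951 and 118 rpm in A952, and without A952 its log2 ratio was 6.32 in place of 8.05. *HHAT*, which adds palmitate to the ligand, was at 168 against 24.8 rpm, *DISP1*, which releases it, at 503 against 57.5 rpm, and *SCUBE1*, a secreted protein of the SCUBE family, at 294 against 8.34 rpm. *IHH* had no read in any NC, which at 3 cells allows a share of up to 0.968% of cells with a read, and *DHH* had a read in 1 NC.

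*SHH* reads were found in some NCs and not in all. At least 5 *SHH* reads were found in 72 of 310 NCs (23.2%, exact interval 18.6% to 28.3%) and in none of the comparison cells, which at 3 cells allows a share with as many reads of up to 0.0568%. At least 1 *SHH* read was found in 35.5% of NCs and 7.84% of comparison cells, or 29.4% and 1.71% after thinning. By tag the share with at least 5 reads was 13.4% (interval 6.33% to 24.0%) in A951 and 26.3% (20.8% to 32.4%) in A952. These intervals overlap, which does not show that the shares are alike, and the difference between the tags was not tested. The median NC had no *SHH* read and the highest had 1919 rpm.

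Of 12 genes for reception and response, none was higher and 4 (33.3%, against 8.96% of all genes) were lower in NCs, with a median of -0.47. *SMO*, the signal transducer, was at 7.95 against 44.9 rpm, the co-receptor *BOC* at 8.98 against 95.1 rpm, *HHIP*, an inhibitor that binds the ligand and a target of the pathway, at 5.87 against 28.9 rpm, and *GLI2* at 1.59 against 5.65 rpm. The call of *GLI2* was lost with comparison cells matched on tag and genes detected and without the 1% of cells with the most reads. *HHIP* was lower within A951 and A952 (log2 ratios -2.69 and -4.45) but stood at 127 rpm in the 5 NCs of A953, and without A952 its pooled log2 ratio was -0.39 in place of -2.30. *GLI1* and *PTCH1*, both textbook targets of the pathway, were neither, at 6.24 against 9.40 rpm and 13.2 against 10.7 rpm. At least 5 *SMO* reads were found in 4.84% of NCs and 22.3% of comparison cells.

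**Figure D3:**
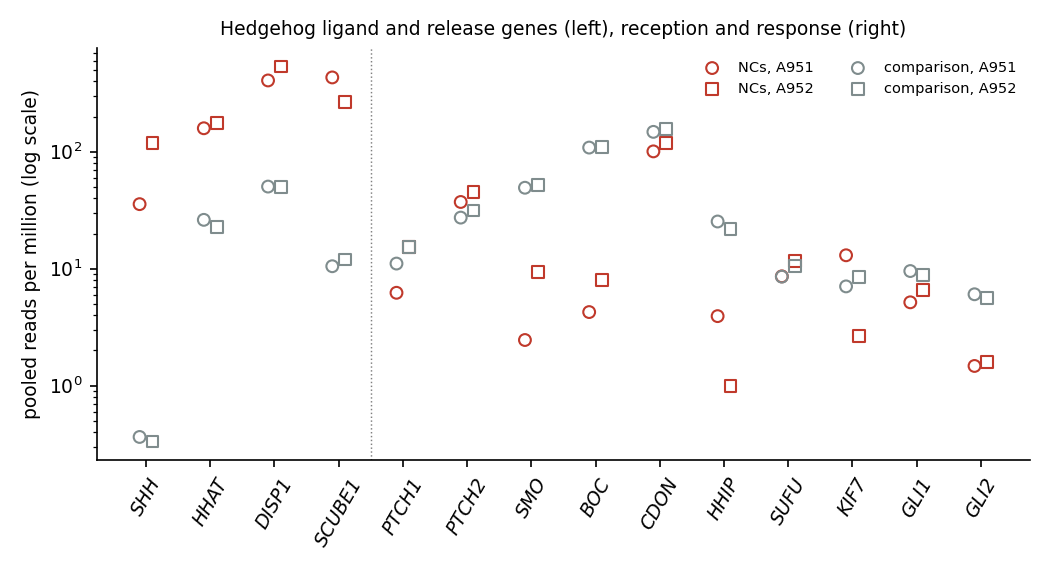
Pooled rpm (y axis, log scale) of hedgehog ligand and release genes and of reception and response genes (x axis) in NCs and comparison cells of A951 and A952. *SHH*, *HHAT*, *DISP1* and *SCUBE1* are higher in the NCs of both tags, whereas *SMO*, *BOC*, *HHIP* and *GLI2* are higher in the comparison cells of both, and the A952 symbols of *PTCH1* coincide (15.4 and 15.3 rpm).

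Of 32 adhesion and keratin genes other than *KRT19*, 16 were higher in NCs, none was lower and 16 were neither, with a median log2 ratio of 1.72 (1.10 within A951 and 1.56 within A952). The desmosome genes *PKP2*, *DSP* (desmoplakin, 618 against 64.6 rpm), *DSG2* (66.4 against 8.62 rpm), *DSC2* (52.0 against 2.55 rpm) and *JUP* (plakoglobin, 29.8 against 6.13 rpm) were among the higher ones. Among cadherins *CDH2*, *CDH1* (24.2 against 1.34 rpm) and *CDH4* were higher, whereas *CDH3*, *CDH6* and *CDH11* were neither. The keratin *KRT7* was higher with at least 5 reads in 7.42% of NCs against 0.0189% of comparison cells, and *KRT10* was neither. The tight junction genes *CLDN10*, *CLDN11* and *F11R* and the gap junction genes *GJA1* and *GJB6* were higher, but with a read in 20% of cells the calls of *KRT7*, *CLDN10*, *CLDN11* and *F11R* were lost, that of *CLDN10* also with thinning. *GJA1* was just past 2-fold (1322 against 646 rpm) and its call was lost under TMM, among others.

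Genes of vacuoles, caveolae and osmolyte transport were also mostly higher, 12 of 17 with none lower and a median of 2.26. The caveola genes *CAV1* (748 against 142 rpm), *CAV2*, *CAVIN2*, *CAVIN4* and *EHD2* were higher, though the call of *CAVIN4* was lost under TMM and with matched comparison cells and that of *CAVIN2* with a read in 20% of cells. *CAVIN2* had at least 5 reads in 15.2% of NCs and in no comparison cell. *SLC12A2*, a sodium, potassium and chloride cotransporter that restores cell volume, was at 369 against 10.7 rpm. *SLC6A6* and *SLC6A12*, the carriers of the osmolytes taurine and betaine, were at 43.7 against 3.13 and 97.0 against 7.71 rpm. *NFAT5*, the transcription factor that answers hypertonic stress, was neither (37.4 against 31.6 rpm). *AQP3*, a channel for water and glycerol, was at 517 against 44.7 rpm. At least 5 reads were found in 56.4% of NCs and 14.7% of comparison cells in A952, but in 14.9% and 13.2% in A951, where a read was found in 28.4% and 34.8%, so that the higher pooled level in A951 did not go with a larger share of cells. The vacuolar proton pump genes *ATP6V1B2* and *ATP6V0D1* and the lysosome trafficking gene *RAB38* were higher, and *LAMP1* and *LAMP2* were neither. The call of *ATP6V0D1* was lost under TMM.

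Transcription factors went both ways. Of 24 other than *TBXT*, 3 (12.5%, against 16.3% of all genes) were higher (*FOXD1*, *RUNX3* and *LMX1A*) and 10 (41.7%, against 8.96%) lower, with a median of -0.94. *RUNX3* and *LMX1A* had at least 5 reads in 3.87% and 4.84% of NCs, 1 cell held 39.8% of the *RUNX3* reads, and both calls were lost when a read in 20% of cells was asked for, that of *RUNX3* also at a rule of 20 reads and without the 1% of cells with the most reads. *FOXD1*, a forkhead factor, was at 673 against 45.4 rpm and had at least 5 reads in 78.4% of NCs and 16.8% of comparison cells. *SOX9*, which drives the cartilage programme and is also a notochord gene, was at 1119.6 against 344 rpm, but it was not counted as higher because its log2 ratio was 0.41 in A951 and 2.07 in A952. Its partners *SOX5* and *SOX6* were neither. The lower genes included *ERG* (14.5 against 149 rpm), an ETS factor of articular cartilage and endothelium, *FOXA3* (6.36 against 114 rpm) and *TBX15* (0.681 against 22.8 rpm). *NOTO*, the notochord homeobox gene, had a read in 1 of 310 NCs.

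Of 31 TGF-beta and BMP genes, which include receptors and intracellular factors, 15 (48.4%, against 8.96% of all genes) were lower, 3 (9.68%, against 16.3%) higher and 13 neither, with a median of -1.5. *INHBA*, a subunit of activin, was at 551 against 6457 rpm, and the ligands *TGFB1*, *TGFB2*, *TGFB3*, *BMP2*, *BMP3*, *BMP6*, *GDF5* and *GDF10* were lower too. The higher genes were *CHRDL1*, a BMP antagonist (496 against 22.7 rpm), and *ID3* and *ID4*, inhibitors of bHLH factors that BMP signals induce. The call of *ID3* was lost when cells were thinned and under means over cells. *ID1* (log2 ratio 1.54) was under 2-fold in A951, and *ID2* (-0.81) was neither. Of 32 WNT and FGF genes 14 (43.8%) were lower, 3 (9.38%) higher and 15 neither, and the lower ones included the inhibitors *WIF1*, *SFRP1*, *SFRP2* and *SFRP5*, *FGF2* (53.0 against 448 rpm) and *FGF18* (12 against 134 rpm). *DKK3*, a secreted glycoprotein of the dickkopf family, had the most reads of this list in NCs. It was higher, at 834 against 20.0 rpm, as were *FZD1* and *WNT4*, 63.9% of the *WNT4* reads coming from 1 cell. The calls of *GDF10* (log2 ratio -2.84, and -0.90 without A952) and *FZD1* (2.56, and 1.40, then with a read in too few cells) were lost when A952 was left out, and *GDF10* was at -5.30 without A953. The calls of *FZD1* and *WNT4* were also lost under means over cells, with thinning and with a read in 20% of cells, and that of *WNT4* (log2 ratio 2.95) without the 1% of cells with the most reads and without A951 (0.43). With a read in 20% of cells the calls of *BMP3*, *GDF5* and *SFRP2* were lost too, that of *GDF5* also with thinning and that of *SFRP2* with matched comparison cells, and that of *TGFB3* was lost at a rule of 20 reads.

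The EGF receptor ligands *AREG* and *EREG* and the muscarinic receptors *CHRM2* and *CHRM3* were found in subsets of NCs, and each was under 1 rpm in comparison cells. *AREG*, amphiregulin, was at 328 against 0.268 rpm and *EREG*, epiregulin, at 67.1 against 0.346 rpm. At least 5 reads of *AREG* were found in 78 NCs (25.2%) and of *EREG* in 59 (19%), and 27 cells had both, which is 34.6% of the former and 45.8% of the latter. Other ligands differed from these, as *HBEGF* was lower (532 against 1354 rpm, a call lost with matched comparison cells and without A954), and *EGF* was higher (24.3 against 3.74 rpm) with a read in 57.1% of NCs and 53.9% of comparison cells. *CHRM2* and *CHRM3*, receptors of acetylcholine, were at 54.8 and 46.4 rpm against 0.0484 and 0.0198 rpm. At least 5 *CHRM2* reads were found in 68 NCs (21.9%) and at least 5 *CHRM3* reads in 66 (21.3%), and only 9 cells had both. In comparison cells 2 and 0 cells did, and the share with any read was 0.587% and 0.455%, far below that of *KRT19*. In the whole list of 24 EGF, muscarinic and neural-type genes 10 (41.7%, against 16.3% of all genes) were higher, including *SEMA3C* and *SLIT3*, guidance cues of axons (771 against 106 and 47.3 against 2.85 rpm), and 3 (12.5%, near the 8.96% of all genes) were lower.

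**Figure D4:**
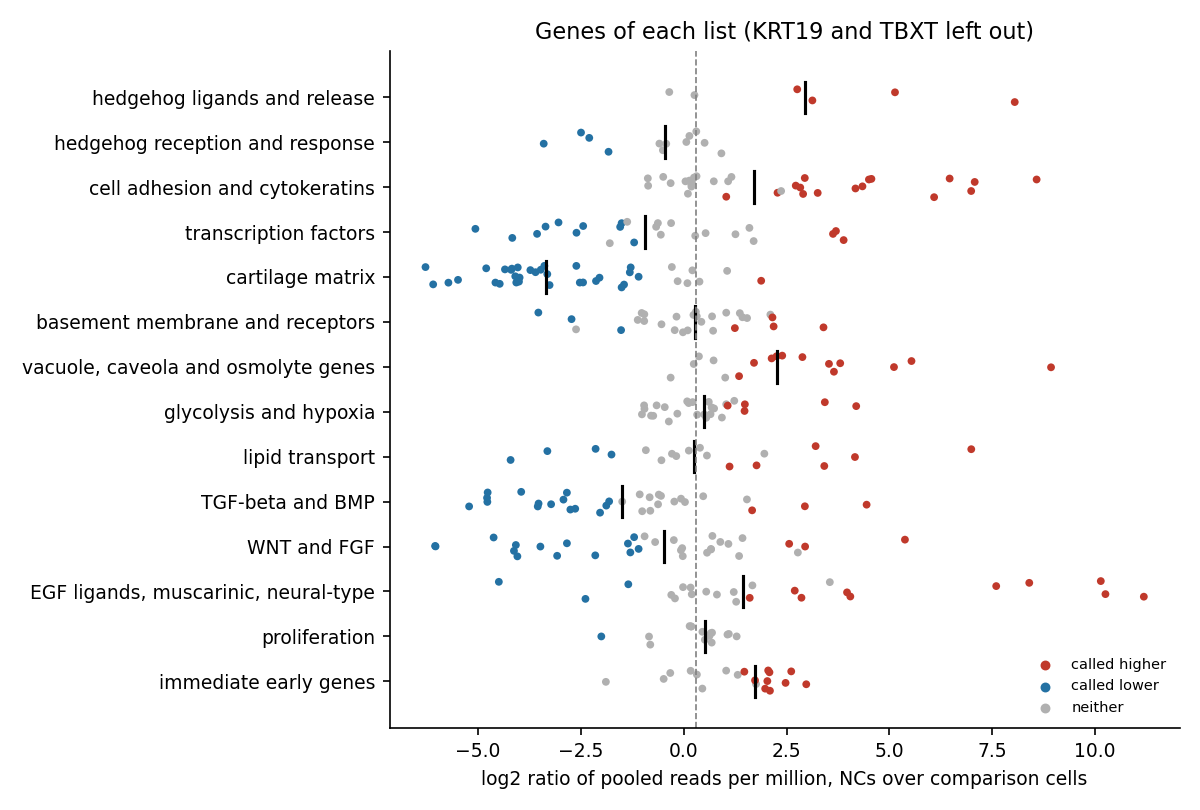
Log2 ratio of pooled rpm, NCs over comparison cells (x axis), of each compared gene of the lists (rows), with *KRT19* and *TBXT* left out, coloured by whether the gene was higher, lower or neither by the 2-fold rule. Cartilage matrix genes lie mostly to the left of -1, and adhesion, vacuole and hedgehog ligand genes mostly to the right of 1.

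Of 27 glycolysis and hypoxia genes 5 (18.5%) were higher (*SLC2A3*, *GPI*, *PFKM*, *CA12* and *ADM*), close to the 16.3% of all genes, and none lower, with a median of 0.50, and *HIF1A* and *EPAS1* in the list of transcription factors were neither. Of the 5, the calls of *SLC2A3*, *GPI* and *PFKM* were lost under TMM, that of *GPI* also without A953, and that of *CA12* with matched comparison cells. *ADM*, adrenomedullin, was at 95.3 against 5.2 rpm and had at least 5 reads in 23.9% of NCs. Of 18 lipid transport genes 6 were higher, including *VLDLR* (67.9 against 3.79 rpm), a receptor that takes up APOE-bearing particles, and 4 were lower, including *APOD* (11.5 against 212 rpm). Of 28 basement membrane genes and receptors 4 were higher (*LAMA4*, *LAMC1*, *NID2* and *ITGA3*) and 3 lower (*LAMC3*, *COL4A1* and *ITGA2*), which is 14.3% and 10.7%, close to the 16.3% and 8.96% of all genes. The calls of *LAMA4* (under TMM, median of ratios, matched cells and thinning), *NID2* (matched cells), *ITGA3* (a read in 20% of cells) and *COL4A1* (several alternatives, with a change of sign in 2) were lost. Of 19 immediate early genes 10 were higher and none lower, with a median of 1.73. *JUN* was at 3104 against 507 rpm, and the middle 50% of NCs spanned 111 to 2796 rpm. Such genes can be induced while tissue is digested, and whether that played a part here was not tested. Of 15 proliferation genes none was higher and 1 (*MCM6*) was lower, and at least 5 *TOP2A* reads were found in 11 NCs (3.55%, interval 1.78% to 6.26%) and 0.909% of comparison cells, 1 NC holding 56.6% of the reads.

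Markers of other cell types were looked at list by list, and their part in the results above was not tested. Of 7 immune genes 1 was higher, *SRGN*, which is also on the notochordal list, while *PTPRC*, the pan-leukocyte gene, was at 1.30 rpm and *MS4A1* and *AIF1* were at 0. The summed level of the immune list was 771 rpm in NCs, of which *SRGN* made up 739 rpm, and 58.8 rpm in comparison cells. By tag that sum was 701, 794, 657 and 643 rpm in NCs. Of 7 endothelial genes none was higher, *PECAM1* was at 1.17 rpm, and the summed level was 19.5 rpm against 153 rpm, mostly *ERG* in both groups. Of the erythroid list 2 genes were counted, with a sum of 0.0454 rpm in NCs, and none could be compared. Among 5 mural genes *MYL9*, a myosin light chain, was higher (403 against 28.0 rpm), *ACTA2* differed in direction between the tags, *CNN1* was at 0, and the summed level was 496 against 66.3 rpm. *TAGLN*, transgelin, an actin-binding protein of contractile cells that is on no list, was at 4686 rpm in NCs against 105 rpm and was chosen after its values were seen. Of 4 epithelial genes *CDH1* was higher and *KRT5*, *ESRP1* and *GRHL2* were under 1 rpm in both groups, with sums of 26.1 and 3.92 rpm. Of 6 osteoblast genes 3 (*ALPL*, *BGLAP* and *IBSP*) were lower, calls that were lost with thinning and with a read in 20% of cells. *SPP1*, osteopontin, had the most reads of this list in NCs (3380 against 788 rpm, under 2-fold in A951), and the sums were 3398 and 859 rpm. Of 6 glia and neuron genes *MAP2*, *RBFOX3*, *TUBB3* and *SNAP25* were higher, at 50.4, 77.1, 2.39 and 10.7 rpm against 3.09, 11.1, 0.721 and 0.495 rpm, while *S100B* (445 against 585 rpm) was neither, and the sums were 590.3 and 604 rpm. The call of *TUBB3* was lost without A952, under means over cells, with thinning and with a read in 20% of cells, and that of *SNAP25* under the last of these. Of 7 annulus and tendon genes 4 were lower, led by *COL1A1* (10.8 against 572 rpm), and *COL1A2* was level (852 against 874 rpm), and the sums were 1169.8 and 3682 rpm.

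Cells that passed the limit for 1 of the 2 genes were mixed. The 53 cells with *KRT19* only had a median of 69 *KRT19* reads and were shallower than NCs, with medians of 124201 reads and 3072 genes. Over all 53, the median cell had 755 rpm of *C3orf49* (NCs 1798), 7889 of *APOE* (NCs 10832) and 550.1 of *COL2A1* (NCs 415), but their pooled *COL2A1* level was 6653 rpm against 1269 in NCs. The cells differed by tag. The 35 of A952 and 9 of A951 had medians of 12550.4 and 6682 rpm of *APOE* and 474 and 404 rpm of *COL2A1*, near those of NCs. The 8 of A954 had medians of 1.93 rpm of *C3orf49*, 209 of *APOE* and 11308 of *COL2A1*, and the *COL2A1* level was nearer to the comparison cells (18038 rpm).

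The 32 cells with *TBXT* only had a median of 11 *TBXT* reads and were also mixed by tag. The 11 of A952 had medians of 6323 rpm of *APOE* and 901 of *COL2A1*, and 5 of them had at least 5 *C3orf49* reads. The 9 of A953 and 10 of A954 had medians of 0 and 6.10 rpm of *APOE* (comparison cells 9.20) and 13889 and 14087 of *COL2A1*, and none had 5 *C3orf49* reads. A median over all 32 cells (10.9 rpm of *APOE*, 11205 of *COL2A1*) therefore joins unlike cells.

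**Figure D5:**
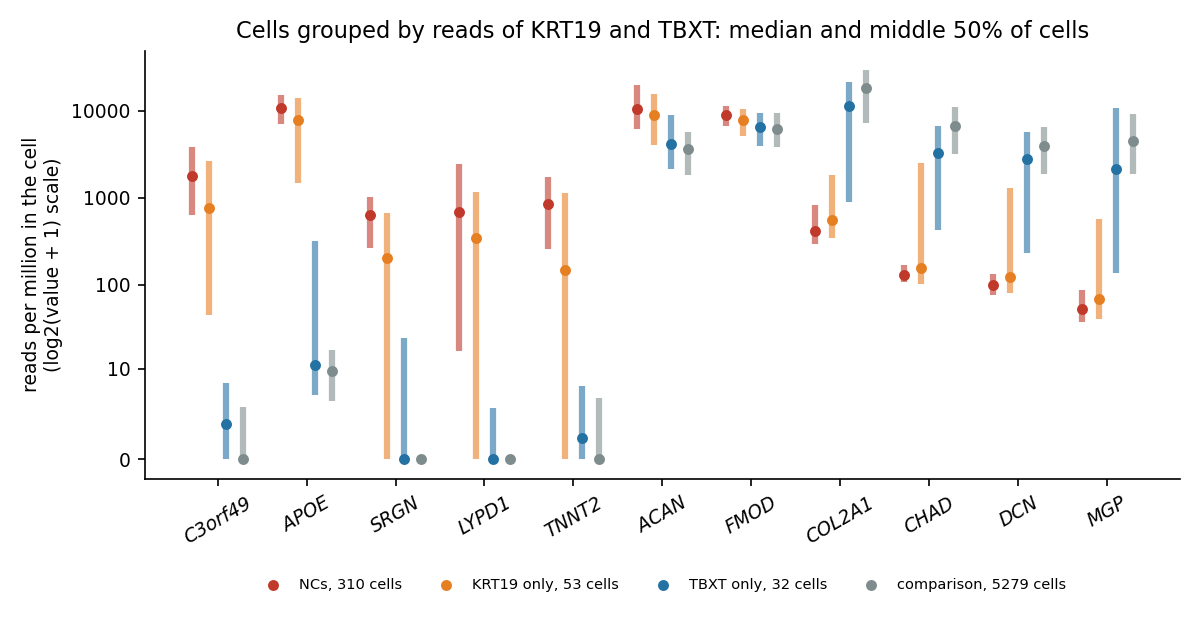
Rpm in the cell (y axis, log2(value + 1) scale) of 11 genes (x axis) in NCs, cells with *KRT19* only, cells with *TBXT* only and comparison cells, as the median (point) and the middle 50% of cells (line). Over all tags, the medians of cells with *KRT19* only lie near those of NCs for *C3orf49*, *APOE* and *COL2A1* and those of cells with *TBXT* only near those of comparison cells, but their lines are long and the tags differ.

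Relations between genes among NCs are given as a description. Over the 303 NCs of A951 and A952, which share 1 library and differ in depth, Spearman's rho was 0.35 between *ACAN* and *COL2A1*, 0.48 between *FOS* and *JUN*, 0.88 between *MT2* and *MT1E*, whose reads may be shared, 0.29 between *AREG* and *EREG*, and -0.06 between *CHRM2* and *CHRM3*. The middle 50% of NCs spanned 6994 to 14959 rpm for *APOE* and 6651 to 11414 rpm for *FMOD*. The span was wider for *LYPD1*, with 16.6 to 2416 rpm. Between the NCs of A951 and those of A952, 17.3% of 7383 genes differed at least 2-fold, against 1.11% of the same genes between the comparison cells of these tags, which are more numerous (919 and 850 cells). *APOE* was at 7392 rpm in NCs of A951 and 11955 rpm in those of A952, *SOX9* at 514 and 1266 rpm and *SPP1* at 1858 and 3859.9 rpm.

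The 7 NCs of A953 and A954 were mixed. All had *APOE*, from 2492 to 16075 rpm in the cell, and *C3orf49*, from 495 to 5818 rpm. The 3 of A953 with the fewest *KRT19* reads had *MGP* at 28358, 5700 and 12450 rpm, above the median of the comparison cells (4448 rpm) and far above that of NCs (52.2 rpm). Another of A953 had 615 *TOP2A* reads and was the deepest of all NCs, with 867991 reads and 8035 genes. Both NCs of A954 had *COL2A1* near the median of NCs (399.7 and 303 rpm). Whether the cells of A953 hold RNA of more than 1 cell was not tested. Without these 7 cells the number of higher genes was 1881 and that of lower genes 1055.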

How the data were processed

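Single cells of pooled AC and NP samples were sequenced in 1 cDNA library by TAS-seq, with a matching tag library that holds no gene expression. The authors aligned reads with HISAT2 2.2.1 to a *Macaca fascicularis* genome whose build is not given in the sources used here, assigned them to genes with featureCounts 2.0.2, keeping reads that map to several places, and counted them per cell with velocyto. The deposited values are raw counts, whole numbers of reads for every gene in every cell, without molecular identifiers or normalization, so PCR copies are counted and 32.2% of the values above 0 are a single read. A second matrix of 1358 cell columns matches no sample label and was not used.

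The library held 5723 cells, 21371 listed genes and 1354369622 reads on genes (median 198057 reads and 3822 genes per cell). Cells with 1 tag were kept (5674). Cells were not filtered further. The study's limits of 200 to 9000 genes and under 5% mitochondrial reads, over 13 genes, would remove 21 cells and no NC. Reads were pooled per group and scaled to 1000000 reads. In a ratio, a group under 3 reads was set to 3, and 3 cells is the limit that a count of 0 allows. Exact intervals are 95% Clopper-Pearson or Poisson limits. With 1 library no test was possible. The 20 highest and 15 lowest genes among those with at least 5 reads in at least 50% of NCs or of comparison cells, the 10 with the most reads, and genes of the lists are named, while 2 list genes that stay in the counts and sums of their lists are not reported here by name. The members and lists were chosen with earlier results of these data known.

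Alternatives were means over cells, TMM and median-of-ratios scaling, other read limits, the study's limits on cells, other comparison cells, thinning, other filters, leaving out each tag, and leaving out the 1% of cells with the most reads of a gene. Use of A951 and A952 alone, and leaving out the 7 NCs of A953 and A954, were chosen after seeing the data. Python 3.11.15 with numpy 2.4.6, scipy 1.17.1, pandas 2.3.3 and matplotlib 3.10.9 was used, and R 4.3.3 with edgeR 4.0.16 for TMM. On simulated data of 11066 genes for this comparison, 98% of 200 genes changed 4-fold or 8-fold were called in the right direction and 0% of unchanged genes were called. Apart from the changed genes, the simulated cells shared the same mean profile, with no difference between tags and no subsets of cells. These rates therefore need not hold for the real data.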

Additional observations from a re-analysis of the deposited data

Results flagged for a closer look

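Among the named genes and those of the lists, 7 genes differed at least 2-fold between NCs and comparison cells in opposite directions in A951 and A952. The difference between the tags was not tested, and the tags are not groups of the study. *ACTA2*, a smooth muscle actin, had a log2 ratio of -2.39 in A951 and 4.53 in A952, with 1.97 and 90.1 rpm in NCs. *BCAM*, a laminin receptor, had -4.22 and 2.40. *FOXF2*, a forkhead factor, had -4.91 and 1.40, and *CENPE*, a kinetochore motor, had -3.36 and 1.41. *NOTUM*, which inactivates WNT ligands, had -2.08 and 1.59, *RUNX2*, a bone and cartilage factor, -1.26 and 1.30, and *NTN1*, the guidance cue netrin-1, -1.21 and 1.27. All 7 had a read in fewer than 50% of NCs, and A951 holds 67 NCs. Over all genes, 244 of 11526 were opposite in this way.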

How the results depend on the processing

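Of 206 named genes counted as higher or lower, 147 kept their call under all alternatives other than a rule of 1 read, and so did all 35 of the highest and lowest genes. With that rule included, 25 of the 206 and 17 of the 35 kept their call under every alternative, and that rule lost 177 calls. The 206, the 147 and the 25 include *KRT19* and *TBXT*, whose calls were set in advance by the choice of members. At a rule of 1 read, 408 cells passed, 26 of A953 and 40 of A954 among them, so that these tags entered the within-tag condition, and 96 genes were higher and 78 lower. With a read in 20% of cells as the filter 1246 genes were higher. Leaving out each tag gave 1883 to 2656 higher and 1037 to 1734 lower genes, the 1734 without A952, when the condition held for 1 tag only, and moved 86 of the 206 genes by over 1.5 times without A952 and 6 to 15 without another tag. Log2 ratios changed sign at the rule of 1 read for *BGLAP* (0.87), *ALPL* (0.93), *CHGB* (2.44), *COL4A1* (0.026), *FGFBP2* (0.16) and *IBSP* (3.08), and without the 1% of cells with the most reads for *CHGB* (0.086) and *COL4A1* (0.18). The causes were not tested. Medians of 8 of 22 lists changed sign under some alternative, none of them a list with a median over 1 in size other than the mural (1.48, and -0.19 without A952) and osteoblast lists (-1.72, and 1.15 at the rule of 1 read, 1.42 after thinning and 1.68 with a read in 20% of cells as the filter). The number of NCs was 297 at 10 reads, 270 at 20 reads and 275 after thinning. No paired analysis was possible because there is 1 library and no result comes from a test. The search for a T-box motif in promoters was not run, since no promoter sequences were used here. Depth limits the shares of scarce genes, and the source of single reads in comparison cells was not tested.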
